A study of Mus musculus with 24 samples.

Results

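The early subjective day was examined in the inguinal, or subcutaneous, fat pad of mice whose adipocytes were meant to lack Bmal1. The comparison rests on 6 of the 24 arrays of the series: 3 from Ad-Bmal1-/- mice (aP2-Cre+/- Bmal1fx/fx) at circadian time 6 (CT6) and 3 from Ad-Bmal1-/- mice at CT0, when the subjective day begins. Members were chosen by the genotype and time on the labels, and each array is an animal sampled once, labelled as a biological replicate. The same step in control mice (Bmal1fx/fx with no Cre), with 3 arrays at CT6 and 3 at CT0, was used as the nearest comparison and shares no array with the knockout step. All mice had the C57BL/6J background through at least 6 generations of crossing and ate chow. They entered constant darkness 36 h before collection began and were fasted for 24 h. From each RNA sample 50 ng was amplified and labelled with biotin for a whole-transcript mouse gene array. Cre was driven by the aP2 promoter. How completely the floxed allele was recombined, and in which cells of the pad, was not measured here, and the floxed controls do not separate an effect of Cre from that of the deletion. In bulk tissue, fewer cells of a type and less RNA per cell cannot be told apart.

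The circadian clock of mammalian cells is a feedback loop. BMAL1, encoded by Arntl, pairs with CLOCK and switches on genes with E-box motifs, among them its own repressors of the Per and Cry families, the REV-ERB nuclear receptors Nr1d1 and Nr1d2, and the PAR bZIP factors Dbp, Tef and Hlf, which act through D-box motifs. REV-ERB proteins repress Arntl, Nfil3 and other genes with ROR elements, which ROR receptors activate. In mouse tissues with an intact clock, Nr1d1 and Dbp transcripts climb over the first part of the subjective day while Arntl declines. Fat also receives daily signals that do not depend on its own clock, such as feeding, body temperature and glucocorticoids.

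The array medians of the 24 samples lay between 6.46 and 6.56 on the log2 scale, and 19938 genes were tested. Among the 6 arrays compared here, knockout CT0 replicate 2 stood apart: it correlated at 0.976 and 0.977 with the other CT0 arrays, which correlated at 0.995 with each other, while the lowest correlation among the CT6 arrays was 0.990. Its mean over 9 uterine epithelium markers was 6.98, against 5.63 to 5.83 on the other 5 arrays, and its mean over 13 macrophage markers was 7.45, against 8.10 to 8.44. The same array was also highest over 13 mammary and skin epithelium markers, with 6.59 against 5.94 to 6.12. Over 10 smooth muscle markers it read 9.65, against 8.80 to 9.15. Over 11 adipocyte markers its mean was 10.06, against 10.54 to 10.73. On knockout CT6 replicate 2 a mean over 15 liver genes, a list added after the values were seen, was 7.65, against 5.18 to 5.94 on the other 5 arrays; Alb, the serum albumin gene, read 11.15 there. The plot of list medians gives every gene list with and without knockout CT0 replicate 2. The source of the RNA behind these marker levels was not established, and its part in the results was not tested.

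Arntl, the targeted gene, was lower in knockout than in control fat at CT0, with 7.51, 7.30 and 7.49 in knockout fat against 7.97 on each of the 3 control arrays. At CT6 it was not: the knockout arrays read 7.08, 6.90 and 6.88 and the control arrays 6.82, 6.82 and 6.54. Where the probes lie relative to the floxed part of the gene is not given in the sources used here, so the value does not measure deletion.

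A single gene of the 19938 passed the test of the knockout step (limma, Benjamini-Hochberg adjusted p under 0.05). This was Nr1d1, which encodes REV-ERB alpha. It read 9.29, 9.29 and 9.18 in knockout fat at CT6 (replicates 1, 2 and 3), against 8.14, 7.47 and 8.28 at CT0. The lowest CT6 array lay above the highest CT0 array, and the lowest value belonged to CT0 replicate 2. Nr1d1 rose by 1.29 ± 0.16 (log2, SE), which is 2.45-fold (limma, adjusted p = 0.00112). Without CT0 replicate 2 the rise was 1.04 ± 0.13 (limma, adjusted p = 0.000843). The call was lost in fits to fewer arrays: the adjusted p was 0.725 with the 6 knockout arrays of CT6 and CT0 alone and 0.0727 with the 12 knockout arrays (limma).

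No gene passed in the other direction (limma), although 681 were lower and 791 higher at an unadjusted p under 0.05. The next smallest adjusted p was 0.103. The calls thus made up 0.00502% of genes higher and 0% lower. The median step over all genes was 0.0014 (log2), and the 3 CT6 arrays lay wholly above the 3 CT0 arrays for 1042 genes (5.23%) and wholly below them for 954 (4.78%). Changes beyond 2-fold were 3 higher and 24 lower. Of the 24, CT0 replicate 2 lay more than 1 log2 above both other CT0 arrays for 19, and 4 stayed beyond 2-fold without it.

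In control fat the same step had 7 calls among the 19938 genes: 5 higher (0.0251%) and 2 lower (0.01%). Nr1d1 rose by 1.45 ± 0.16 (limma, adjusted p = 0.000166). Dbp, Nr1d2, Kit and Tns2 also rose, and Arntl and Lonrf3 fell. Kit, the stem cell factor receptor carried by mast cells, read 6.84 to 6.91 in knockout fat at CT6, against 6.57 to 6.82 at CT0, a step of 0.19 ± 0.10 that did not pass (limma, adjusted p = 0.714). Its control step was 0.66 ± 0.10. Tns2, a focal adhesion protein, had a knockout step of 0.37 ± 0.11 (adjusted p = 0.432), 0.22 without CT0 replicate 2, and a control step of 0.64 ± 0.11. Lonrf3, a RING finger protein, had a knockout step of -0.25 ± 0.13 (adjusted p = 0.730) and a control step of -0.93 ± 0.13.

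No gene passed the test of the difference between the steps, knockout minus control (limma; smallest adjusted p 0.999, with 315 genes, 1.58%, higher and 461, 2.31%, lower at an unadjusted p under 0.05). A gene called in control fat and not in knockout fat is thus not shown to differ between the genotypes. Across the 19938 genes the knockout and control steps correlated at r = 0.157 (Spearman rho 0.113), a description over genes that share arrays and are not independent.

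Of 19 clock genes listed, 17 had a probe set with a single symbol. All 17 had the same sign of step in knockout as in control fat, where 53.2% of all genes did. Cry2, Rora and Bhlhe40 were within 0.02 of 0 in knockout fat, and without CT0 replicate 2 the count was 16 of 17, against 54.5% of all genes. Cry2 was then at -0.10 in knockout fat and 0.17 in control fat. The knockout step was the smaller of the pair for 12 of the 17 (70.6%, against 46.2% of all genes), and the median size of the step was 0.28 in knockout fat and 0.53 in control fat. In both genotypes the CT6 arrays cleared the CT0 arrays for 7 clock genes upward (0.893% of all genes) and for 2 downward (0.326%). In the knockout step, 9 of the 17 were higher at an unadjusted p under 0.05, against 3.97% of all genes, and 1 was lower, against 3.42%. These lists were drawn up with earlier results of these data known, so the counts are descriptions.

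**Figure D1:**
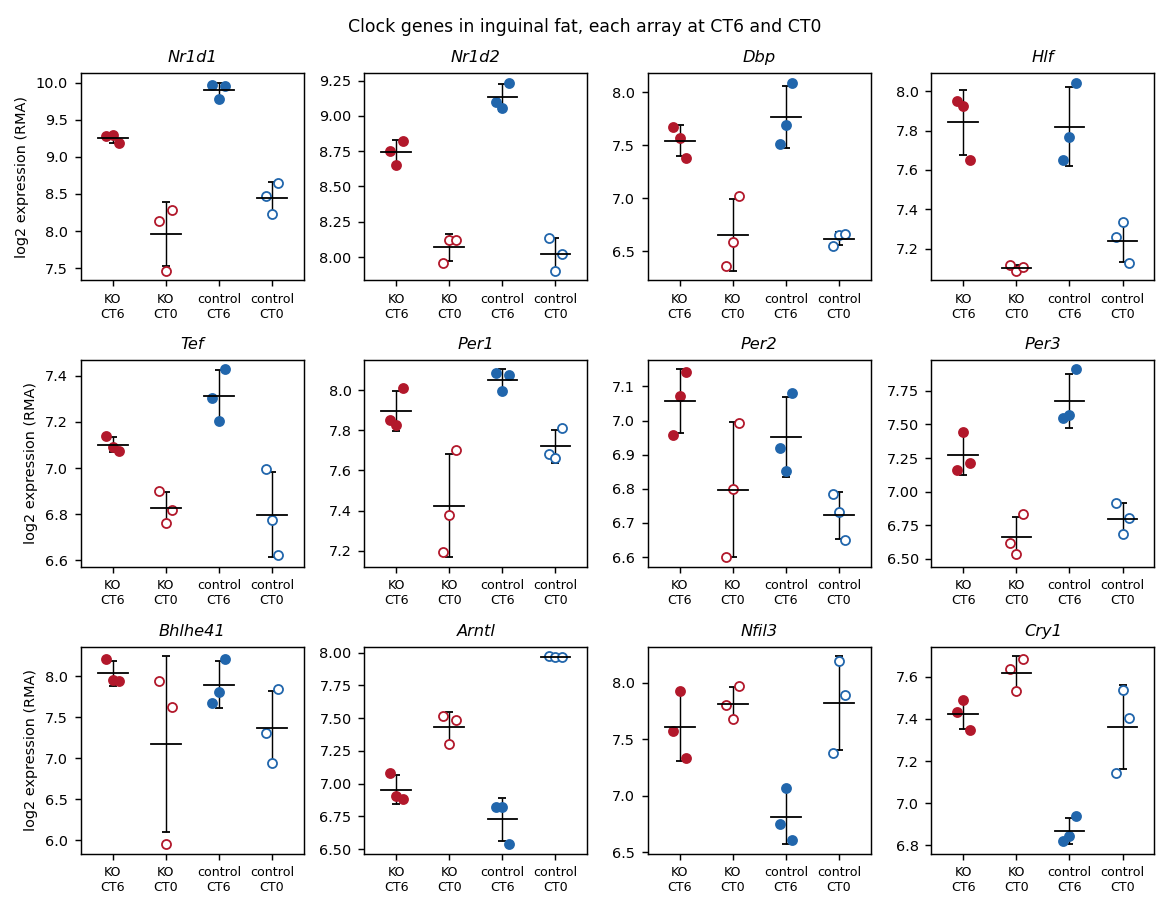
Log2 expression (RMA) of 12 clock genes on each array of knockout (KO, red) and control (blue) inguinal fat at CT6 (filled) and CT0 (open). Bars are the mean and SD of 3 arrays. Nr1d1, Nr1d2, Dbp, Hlf, Tef, Per1 and Per3 separate CT6 above CT0 in both genotypes, and Arntl and Cry1 separate CT6 below CT0.

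Promoter windows are shown for the gene that passed and for 5 clock genes on whose windows a motif was found, since the list is ordered by these motifs. They come from RefSeq (GRCm38.p6) and run from 250 bases before a transcript start to 50 after it, 5′ to 3′ on the gene's strand. Capitals mark the E-box CACGTG in Per1 and Tef, the D-box TTATGTAA in Per3 and the ROR element, TAGGTCA or TGGGTCA read on either strand, in Arntl and Nfil3. The windows are chr11:98775328-98775627 (minus strand) for Nr1d1, chr11:69098699-69098998 (plus) for Per1, chr15:81802423-81802722 (plus) for Tef, chr4:151044616-151044915 (minus) for Per3, chr7:113207261-113207560 (plus) for Arntl and chr13:52980990-52981289 (minus) for Nfil3.
Nr1d1: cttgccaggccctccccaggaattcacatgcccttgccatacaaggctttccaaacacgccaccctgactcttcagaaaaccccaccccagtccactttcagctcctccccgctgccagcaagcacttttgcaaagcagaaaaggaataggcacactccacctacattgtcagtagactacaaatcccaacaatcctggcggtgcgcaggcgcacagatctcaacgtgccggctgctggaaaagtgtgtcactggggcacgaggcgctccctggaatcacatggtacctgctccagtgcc
Per1: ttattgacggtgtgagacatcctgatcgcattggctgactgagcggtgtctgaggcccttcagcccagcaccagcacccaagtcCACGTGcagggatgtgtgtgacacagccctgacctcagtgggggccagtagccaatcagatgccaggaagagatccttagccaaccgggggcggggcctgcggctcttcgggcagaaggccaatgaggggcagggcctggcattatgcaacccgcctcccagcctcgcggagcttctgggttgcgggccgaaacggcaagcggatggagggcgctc
Tef: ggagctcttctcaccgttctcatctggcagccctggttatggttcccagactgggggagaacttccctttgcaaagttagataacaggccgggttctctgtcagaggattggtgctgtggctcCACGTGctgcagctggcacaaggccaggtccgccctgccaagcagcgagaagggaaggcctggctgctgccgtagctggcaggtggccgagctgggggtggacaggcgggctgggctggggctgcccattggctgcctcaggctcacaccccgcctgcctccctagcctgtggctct
Per3: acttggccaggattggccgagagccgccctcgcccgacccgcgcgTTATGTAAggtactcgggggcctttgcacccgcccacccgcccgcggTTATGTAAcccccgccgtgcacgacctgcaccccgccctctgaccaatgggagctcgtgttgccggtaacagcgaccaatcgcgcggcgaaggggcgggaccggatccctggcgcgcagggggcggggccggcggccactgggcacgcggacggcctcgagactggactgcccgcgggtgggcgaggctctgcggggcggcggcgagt
Arntl: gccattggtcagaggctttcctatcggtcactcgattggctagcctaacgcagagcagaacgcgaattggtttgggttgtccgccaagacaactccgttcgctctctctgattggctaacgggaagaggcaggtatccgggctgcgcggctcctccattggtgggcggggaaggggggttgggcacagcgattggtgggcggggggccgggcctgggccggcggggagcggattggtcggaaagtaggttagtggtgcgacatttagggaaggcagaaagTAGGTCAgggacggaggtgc
Nfil3: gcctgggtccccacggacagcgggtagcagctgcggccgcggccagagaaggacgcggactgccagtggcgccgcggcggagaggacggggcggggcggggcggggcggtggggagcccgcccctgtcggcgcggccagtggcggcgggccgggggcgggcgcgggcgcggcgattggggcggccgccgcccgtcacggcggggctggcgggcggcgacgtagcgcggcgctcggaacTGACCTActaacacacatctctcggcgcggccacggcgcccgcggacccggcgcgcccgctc

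Both strands were searched. The E-box was in 7.15% of the 32851 windows in the table, the D-box in 0.938% and the ROR element in 6.45%. Of 16 clock genes in the table, 5 had a window with an E-box (Per1, Cry1, Tef, Bhlhe41 and Ciart), 1 with a D-box and 2 with a ROR element. A gene was counted if any of its windows held the motif, whereas the shares are per window. The other window of Per1 and that of Arntl, not shown, held none of the 3 motifs. The other window of Tef held an E-box. The Nr1d1, Nr1d2, Dbp and Hlf windows held none of the 3, which says only that these letters are not in these windows. Ciart, a repressor of the clock, held 3 E-boxes, and its knockout step was 0.19 ± 0.23 (limma, adjusted p = 0.929), with 0.092 without CT6 replicate 1 and 0.33 without CT6 replicate 3.

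Besides Nr1d1, the REV-ERB and PAR bZIP genes had positive steps in knockout fat. Nr1d2, which encodes REV-ERB beta, read 8.75, 8.65 and 8.82 in knockout fat at CT6, against 7.96, 8.12 and 8.12 at CT0. Dbp read 7.67, 7.57 and 7.38 at CT6, against 6.36, 6.59 and 7.02 at CT0. Hlf read 7.95, 7.92 and 7.65 at CT6, against 7.11, 7.09 and 7.10 at CT0. In all 3 genes every CT6 array lay above every CT0 array, and the CT0 arrays of Hlf were within 0.012 (SD) of each other. None passed: the steps were 0.67 ± 0.17 for Nr1d2 (limma, adjusted p = 0.268), 0.88 ± 0.16 for Dbp (adjusted p = 0.103) and 0.74 ± 0.15 for Hlf (adjusted p = 0.118). The control steps were 1.11, 1.15 and 0.58. Tef had a knockout step of 0.28 ± 0.10 and a control step of 0.52, with CT6 above CT0 on every array of both genotypes. Leaving out CT0 replicate 2 left the 4 knockout steps at 0.70, 0.85, 0.73 and 0.24.

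The period genes, repressors of BMAL1 and CLOCK, also had positive steps. Per3 read 7.16, 7.45 and 7.22 in knockout fat at CT6, against 6.62, 6.54 and 6.83 at CT0. Per1 read 7.85, 7.83 and 8.01 at CT6, against 7.19, 7.38 and 7.70 at CT0. For both genes the CT6 arrays cleared the CT0 arrays, with steps of 0.61 ± 0.16 and 0.47 ± 0.14 that did not pass (limma, adjusted p = 0.308 and 0.382). Per2 had a step of 0.26 ± 0.10 (0.16 without CT0 replicate 1), and its groups overlapped. The control steps were 0.87, 0.33 and 0.23 for Per3, Per1 and Per2.

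Genes repressed by REV-ERB had small negative steps in knockout fat. Arntl had a step of -0.48 ± 0.16 (limma, adjusted p = 0.490), with every CT6 array below every CT0 array, and a control step of -1.24 ± 0.16 (adjusted p = 0.000948). The difference of its steps was 0.76 ± 0.22, with an unadjusted p of 0.0024 and an adjusted p of 0.999 (limma). Nfil3, a repressor that binds the D-box, read 7.57, 7.93 and 7.33 in knockout fat at CT6, against 7.80, 7.67 and 7.97 at CT0. These values overlapped, whereas in control fat 6.75, 7.07 and 6.60 at CT6 lay below 7.38, 8.20 and 7.89 at CT0. Its knockout step was -0.20 ± 0.26 (-0.064 without CT6 replicate 3 and -0.36 without CT6 replicate 2) and its control step -1.01. Cry1, a cryptochrome repressor, had a knockout step of -0.20 ± 0.13 without overlap and a control step of -0.49, and Clock had -0.14 ± 0.14 (-0.25 without CT0 replicate 2 and -0.063 without CT0 replicate 1) and -0.27. Over the 4 REV-ERB and ROR targets measured, all 4 steps were negative in each genotype, with a median of -0.20 in knockout fat (-0.26 without CT0 replicate 2) and -0.75 in control fat.

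The remaining clock genes were near 0 or varied between arrays. Cry2, Rora, which encodes the activator ROR alpha, and Bhlhe40, a repressor, had knockout steps of 0.02, -0.01 and 0.00 with groups that overlapped. The control step of Bhlhe40 was 0.45. Bhlhe41, its paralogue, read 8.21, 7.95 and 7.94 in knockout fat at CT6, against 7.94, 5.95 and 7.63 at CT0. The low value belonged to CT0 replicate 2, and the step of 0.86 ± 0.35 was 0.25 without that array.

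**Figure D2:**
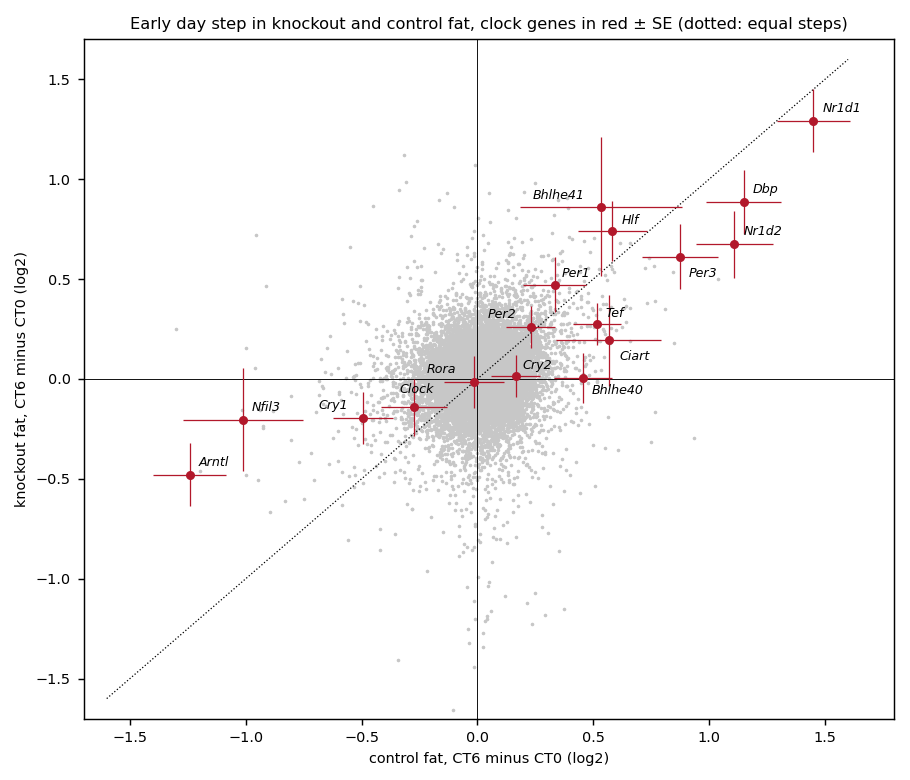
CT6 minus CT0 (log2) in knockout fat (vertical axis) against control fat (horizontal axis) for the genes tested (grey; 3 lie outside the plot) and the 17 clock genes (red, ± SE of the limma fit); the dotted line marks equal steps. Nr1d1 stands at 1.29 in knockout and 1.45 in control fat, and Arntl at -0.48 and -1.24.

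Across the 15 E-box targets listed, all steps in knockout fat were positive, from 0.0047 to 1.29, with a median of 0.28 (0.25 without CT0 replicate 2, when 13 of the 15 were positive). In control fat 14 of 15 were positive, with a median of 0.52. Arrays of the knockout step did not overlap for 7 of the 15, all higher, against 5.23% of all genes. This list shares genes with the clock list, among them Nr1d1, Dbp, Hlf and Nr1d2, so it is not a separate set. Of its 12 genes with promoter windows, 4 had a window with the E-box searched for.

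At the other times, Nr1d1 in knockout fat averaged 7.96 ± 0.44 at CT0, 9.26 ± 0.06 at CT6, 8.49 ± 0.16 at CT12 and 7.09 ± 0.02 at CT18 (SD, n = 3 each). Of the 4 times, CT6 was the highest. Dbp averaged 6.66 ± 0.34, 7.54 ± 0.15, 7.56 ± 0.15 and 6.69 ± 0.21 over the same times, so its CT6 and CT12 means differed by less than their spread. Arntl in knockout fat averaged 7.43 ± 0.12, 6.95 ± 0.11, 6.74 ± 0.25 and 7.26 ± 0.18. In control fat it averaged 7.97, 6.73, 6.34 and 7.32, with CT0 the highest.

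**Figure D3:**
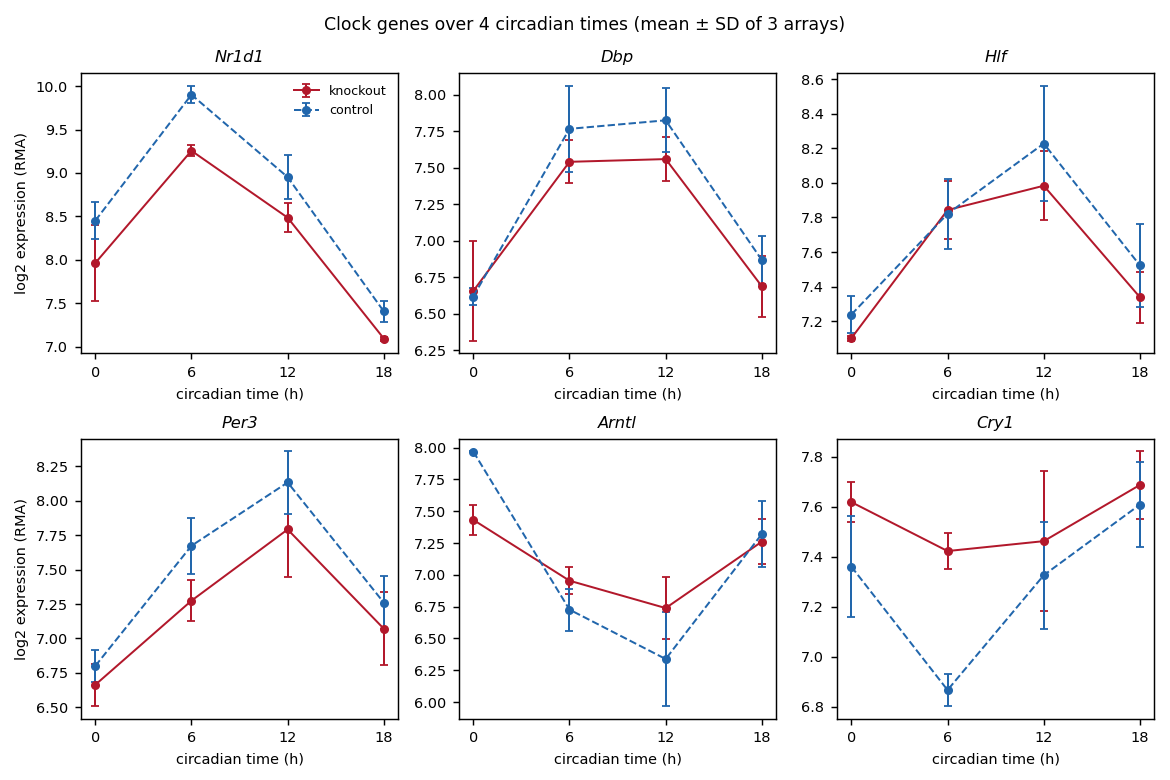
Log2 expression (RMA, mean ± SD of 3 arrays) of 6 clock genes at the 4 circadian times in knockout (solid red) and control (dashed blue) fat. Nr1d1 is highest at CT6 in both genotypes, with means of 9.26 in knockout and 9.90 in control fat.

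Outside the clock list, 7 genes were among the 10 with the smallest p of those higher at CT6 in knockout fat, and none passed. Choice by this p favours groups that do not overlap. Dync2li1, a light intermediate chain of the dynein that works in cilia, read 7.65, 7.66 and 7.48 at CT6, against 7.06, 7.21 and 6.96 at CT0. Its groups did not overlap, and its step was 0.52 ± 0.09 (limma, adjusted p = 0.103), with 0.02 in control fat. Cybrd1, a ferric reductase, read 7.93, 7.86 and 7.50 at CT6, against 7.01, 6.55 and 7.03 at CT0. Its step was 0.90 ± 0.17 and again the groups did not overlap. Il18, which encodes an interleukin of the IL-1 family, read 6.90, 6.98 and 6.95 at CT6, against 6.17, 5.80 and 6.42 at CT0, a step of 0.81 ± 0.16. Art3, a member of the ADP-ribosyltransferase family, had a step of 0.50 ± 0.09, Usp26, a deubiquitinase, 0.44 ± 0.08, and Fibp, which binds fibroblast growth factor 1, 0.38 ± 0.08. Their adjusted p lay between 0.103 and 0.118 (limma). The control steps of Art3, Usp26, Fibp, Cybrd1 and Il18 were 0.13, 0.07, 0.07, 0.35 and 0.17.

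Ifit3, an antiviral gene induced by interferon, had the widest step of these. It read 9.07, 9.17 and 8.31 in knockout fat at CT6, against 7.54, 7.50 and 8.30 at CT0. The nearest arrays of the groups, both numbered 3, differed by 0.01. The step was 1.07 ± 0.21 (limma, adjusted p = 0.103), and it passed without CT6 replicate 3 (1.34, adjusted p = 0.0113) and without CT0 replicate 3 (1.33, adjusted p = 0.0102). In control fat Ifit3 lay between 8.56 and 8.93 at CT6 and between 8.42 and 9.02 at CT0. Of 15 interferon induced genes, 5 were higher at an unadjusted p under 0.05 and 0 lower, against 3.97% and 3.42% of all genes. The median was 0.22 (0.10 without CT0 replicate 2, and 0.073 to 0.29 with any 1 of the 6 arrays left out) in knockout fat and 0.11 in control fat. Xaf1, an apoptosis factor, had a step of 0.44 ± 0.12, Ifit2 0.35 ± 0.12 and Ifit1 0.44 ± 0.17 (limma, adjusted p = 0.334, 0.525 and 0.595). Ifit2 had 0.21 without CT0 replicate 2 and Ifit1 had 0.27 without CT6 replicate 2.

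The 10 genes with the smallest p of those lower at CT6 had steps of -0.34 to -0.58 and adjusted p of 0.103 to 0.153 (limma). Lemd3, a protein of the inner nuclear membrane, read 8.04, 8.05 and 8.12 at CT6, against 8.47, 8.51 and 8.54 at CT0. Its step was -0.43 ± 0.08, and -0.10 in control fat. Actn1, the actin crosslinker alpha-actinin 1, read 7.55, 7.54 and 7.78 at CT6, against 8.02, 8.58 and 8.01 at CT0. Its step of -0.58 ± 0.13 was -0.40 without CT0 replicate 2. Snora3, a small nucleolar RNA, read 7.37 to 7.64 at CT6, against 7.94 to 8.08 at CT0. In each of these genes the groups did not overlap. The other 7 were Kdm5c, an X-linked histone demethylase, Mdn1, a ribosome assembly factor, Cep43, a centrosomal protein, Wsb1, a ubiquitin ligase subunit, Spty2d1, Atp11a, a phospholipid flippase, and Azin1, which counters ornithine decarboxylase antizyme. All 7 had CT6 arrays below the CT0 arrays, with steps of -0.34 to -0.41 in knockout fat and of -0.16 to 0.01 in control fat. These 10 were also chosen by p, which favours separated arrays. Slc20a1, a phosphate transporter named after its values were seen, passed once CT0 replicate 2 was left out: it read 7.17, 7.20 and 7.38 at CT6, against 8.10, 7.29 and 7.91 at CT0, and the step was -0.76 without that array (limma, adjusted p = 0.000843) and -0.52 with it (adjusted p = 0.283).

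**Figure D4:**
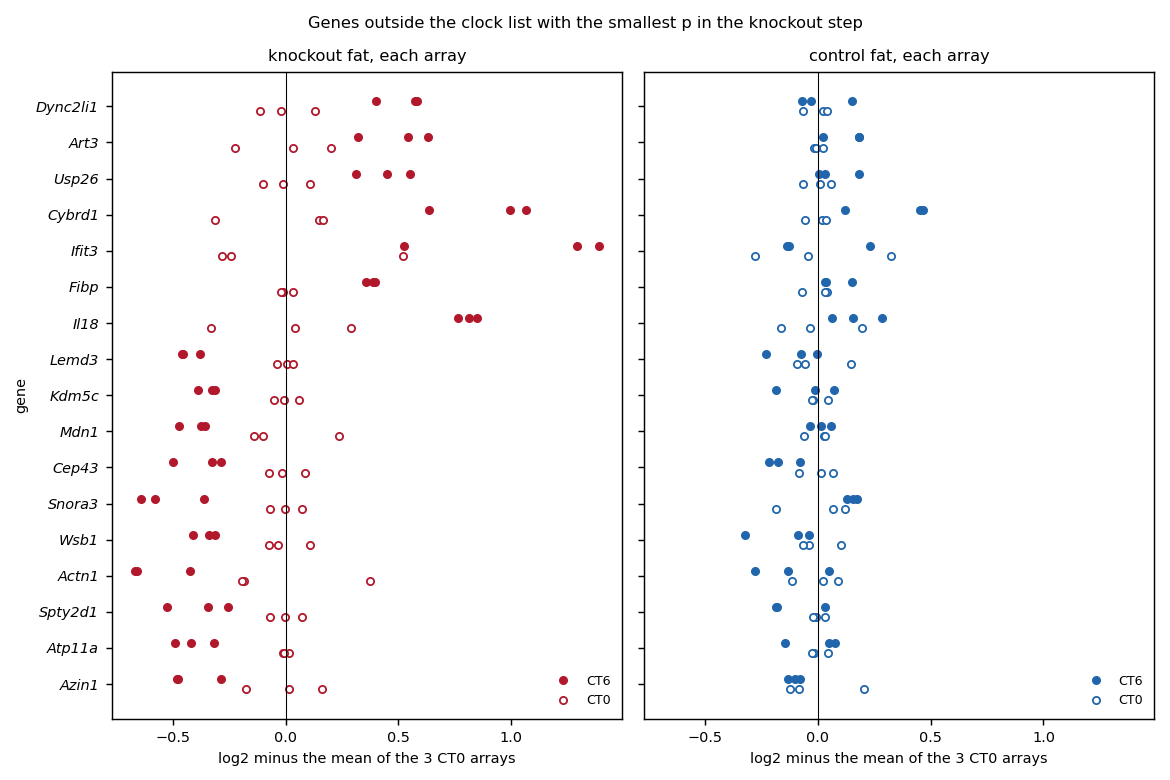
Each array at CT6 (filled) and CT0 (open) minus the mean of the 3 CT0 arrays of its genotype (log2), in knockout (left) and control (right) fat, for the 17 genes outside the clock list with the smallest p in the knockout step. In knockout fat the CT6 points clear the CT0 points for each gene, by 0.01 for Ifit3. The genes were chosen by the p of this same comparison, which favours such separation. Of all genes, 5.23% lay wholly above and 4.78% wholly below. None of the 17 passed the threshold.

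In the difference of the steps, the genes with the smallest p were Asnsd1, Zdbf2, Dync2li1, Lonrf3 and Ifit3 (knockout above control) and Snora3, Sart3, Casc3, Pknox1 and Sfpq (knockout below control), none of them passing (limma, adjusted p = 0.999). Zdbf2, an imprinted gene, had a knockout step of 0.33 and a control step of -0.25. Asnsd1 had 0.36 and -0.12. Sart3, which recycles spliceosomal particles, had -0.19 and 0.19. Casc3, of the exon junction complex, had -0.20 and 0.17, and Sfpq, a splicing factor, -0.27 and 0.10. Pknox1, a homeodomain factor, had -0.32 and 0.09.

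Glucocorticoid responsive genes included 3 of 15 that were higher at an unadjusted p under 0.05, against 3.97% of all genes: Per1, Klf9 and Zbtb16. Klf9, a Krüppel-like factor, read 7.90, 7.80 and 7.77 in knockout fat at CT6, against 7.47, 7.25 and 7.70 at CT0. The groups did not overlap, and the step was 0.35 ± 0.12 (limma, adjusted p = 0.520), with 0.31 in control fat. Zbtb16, a zinc finger factor, read 8.10 on CT0 replicate 2 and 9.27 and 9.50 on the other CT0 arrays, against 9.46 to 9.54 at CT6. Its step of 0.55 was 0.12 without that array. The list's median was 0.13, and -0.0094 without CT0 replicate 2, against 0.14 in control fat. Klf15, a FOXO-linked Krüppel-like factor of the insulin list, had a step of 0.39 ± 0.14 in knockout fat and 0.37 in control fat. The medians over 16 insulin and FOXO genes and 22 immediate early genes were 0.028 and 0.021 in knockout fat, and -0.034 and -0.030 without CT0 replicate 2.

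More chaperone genes had negative than positive steps. Hsph1, a heat shock protein of the HSP110 family, read 7.56, 7.58 and 7.77 in knockout fat at CT6, against 8.31, 8.19 and 8.31 at CT0. Its step of -0.63 ± 0.16 did not pass (limma, adjusted p = 0.268), and the control step was -0.58 ± 0.16. Hsp90aa1, a cytosolic chaperone, had -0.18 in knockout fat, without overlap of its arrays, and -0.21 in control fat. Over 13 heat shock genes, 4 were positive and 9 negative in both genotypes. In the knockout step 2 of them were higher and 3 lower at an unadjusted p under 0.05 (limma), against 3.97% and 3.42% of all genes. Only members with negative steps are named here. Of 20 chaperones and unfolded protein response genes of the endoplasmic reticulum, 7 had CT6 arrays wholly below CT0, where 4.78% of all genes did. Pdia6, a protein disulfide isomerase, had a step of -0.29 ± 0.10, Calr, a calcium-binding chaperone, -0.23 ± 0.09 and Hspa5, the chaperone BiP, -0.18 ± 0.08 (limma, adjusted p = 0.490, 0.578 and 0.643). The list's median was -0.067 (-0.16 without CT0 replicate 2) and 0.014 in control fat. Both cold inducible RNA binding proteins, Cirbp and Rbm3, were positive in knockout fat, with 0.33 ± 0.15 (0.13 without CT0 replicate 3) and 0.15 ± 0.07 (0.098 without CT6 replicate 3).

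Pparg, the nuclear receptor that directs adipocyte differentiation, read 10.34, 10.46 and 10.55 in knockout fat at CT6, against 9.98, 9.52 and 10.24 at CT0. Its groups did not overlap. The step was 0.53 ± 0.14 (limma, adjusted p = 0.283), 0.34 without CT0 replicate 2 and 0.59 ± 0.14 in control fat. Adipoq and Fabp4, the adiponectin and fatty acid binding protein genes that define adipocytes, had steps of 0.00 and 0.02. Of 11 adipocyte markers 10 were positive with all arrays, with a median of 0.12, and 3 were positive without CT0 replicate 2, with a median of -0.026. Retn, which encodes resistin, had a step of 0.34 ± 0.12 (adjusted p = 0.529), 0.20 without CT0 replicate 2 and 0.06 in control fat. Lep, which encodes leptin, read 9.48, 9.37 and 10.13 at CT6, against 10.77, 9.23 and 10.30 at CT0. Its step of -0.44 ± 0.29 became -0.88 without CT0 replicate 2 (limma, adjusted p = 0.453) and -0.10 without CT0 replicate 1, and it was -0.53 in control fat.

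Medians of the lipid and mitochondrial lists differed with and without CT0 replicate 2. Of 10 triglyceride synthesis genes 9 were positive with a median of 0.25, and without that array 5 were, with a median of 0.055. Of 14 lipolysis genes 10 were positive and then 1, with medians of 0.10 and -0.079. Of 17 fatty acid oxidation genes 14 were positive and then 6, with medians of 0.096 and -0.023. Of 25 respiratory chain subunits 24 were positive and then 13, with medians of 0.10 and 0.010, whereas 2 of 25 were positive in control fat. The control arrays averaged 10.18 to 10.23 over these subunits at CT6 and 10.22 to 10.38 at CT0, which overlap. In control fat 0 of them had an unadjusted p under 0.05 (limma). Pck1, which makes glycerol backbones in fat, had a step of 0.37 ± 0.16 (0.24 without CT0 replicate 2) and 0.54 in control fat. Mlxipl, which encodes the lipogenic factor ChREBP, had 0.40 ± 0.14 (0.26) and 0.45. Over 22 lipogenesis genes 10 were positive, with a median of -0.013 in knockout and -0.25 in control fat. Control CT0 replicate 2 averaged 9.35 over this list, against 8.55 and 8.48 on the other control CT0 arrays. The control CT6 arrays averaged 8.45 to 8.60, so the control median leans on that 1 array. With any 1 of the 6 knockout arrays left out, the lipogenesis median lay between -0.056 and 0.10. Fdft1, squalene synthase, had 0.51 ± 0.20 in a list of 20 cholesterol genes with a median of 0.0084 (-0.055 without CT0 replicate 2). The medians over 15 glycolysis genes, 9 adipokines and 9 thermogenic genes were 0.019, 0.019 and -0.088, and -0.063, -0.030 and -0.072 without CT0 replicate 2. Leaving out CT6 replicate 2 also changed the sign of the fatty acid oxidation, cholesterol, glycolysis and adipokine medians.

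Among 15 cell cycle genes 14 were negative in knockout fat, with a median of -0.15 (-0.092 without CT0 replicate 2, when 11 were), and 15 of 15 were positive in control fat, with a median of 0.13. The array means over the list overlapped in both genotypes. They were 5.83 to 6.23 at CT6 and 5.87 to 6.05 at CT0 in control fat, and 5.777 to 6.035 and 5.829 to 6.318 in knockout fat. In control fat 0 of these genes had an unadjusted p under 0.05 (limma). Top2a, topoisomerase II alpha, read 5.33, 6.45 and 5.61 in knockout fat at CT6, against 5.98, 7.12 and 6.76 at CT0. Its groups overlapped, the step was -0.82 ± 0.38 (limma, adjusted p = 0.660), and no gene of the list passed in any of the comparisons. Mki67, the proliferation antigen Ki-67, had -0.54 ± 0.30, -0.27 without CT0 replicate 2 and -0.83 without CT0 replicate 1. Of 14 ribosome biogenesis genes 11 were negative, with a median of -0.062 (-0.00057 without that array, when 7 were). Of 14 inflammatory genes 9 were negative, with a median of -0.078 (-0.15 without CT0 replicate 2 and 0.00073 without CT0 replicate 1). Ccl2, a monocyte chemokine, read 6.33, 6.20 and 6.55 at CT6, against 6.91, 6.70 and 6.60 at CT0, a step of -0.38 ± 0.11 (adjusted p = 0.420) without overlap, and 0.08 in control fat.

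Marker lists of several other cell types also differed with and without CT0 replicate 2. All 13 macrophage markers had positive steps in knockout fat with a median of 0.40, and 9 did with a median of 0.093 without that array. Csf1r, the macrophage growth factor receptor, read 8.06, 8.29 and 8.12 at CT6, against 7.91, 7.01 and 8.12 at CT0, a step of 0.48 that was 0.14 without that array. All 8 mesothelium markers were positive, with a median of 0.38, and still were without it, with a median of 0.29. In control fat 6 of the 8 were positive, with a median of 0.17. The knockout arrays averaged 8.41 to 8.93 over these markers at CT6 and 8.06 to 8.52 at CT0, which overlap. Upk3b, a uroplakin of the mesothelium, read 9.34, 8.88 and 8.76 at CT6, against 8.74, 7.86 and 8.50 at CT0, and the groups did not overlap (0.63 ± 0.23, limma, adjusted p = 0.565). Without CT0 replicate 2 its step was 0.37, and with array weights 0.35. Of 9 uterine epithelium markers 8 were negative, and 3 without that array. Wfdc2, a secreted epithelial protein, read 5.58 to 5.63 at CT6 and 5.76, 8.98 and 5.54 at CT0. Smooth muscle markers had a median of -0.24 over 10 genes, and 0.020 without it. All 12 T cell markers and 8 of 9 B cell markers were negative, with medians of -0.10 and -0.12 (-0.21 and -0.61 without CT0 replicate 2). The B cell median was 0.052 without CT0 replicate 1. Ms4a1, the B cell antigen CD20, read 6.68, 6.11 and 6.47 at CT6, against 8.52, 5.55 and 7.23 at CT0, which overlap. The median was 0.18 over 8 mast cell markers (0.21 without that array), 0.14 over 12 endothelium markers (-0.031), 0.18 over 13 progenitor and fibroblast markers (-0.019) and 0.046 over 8 neutrophil markers (-0.050). For skeletal muscle, Schwann cell, mammary and skin epithelium and red blood cell markers the medians were -0.052, 0.093, 0.0040 and 0.076, and -0.0039, 0.10, 0.038 and -0.036 without it.

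**Figure D5:**
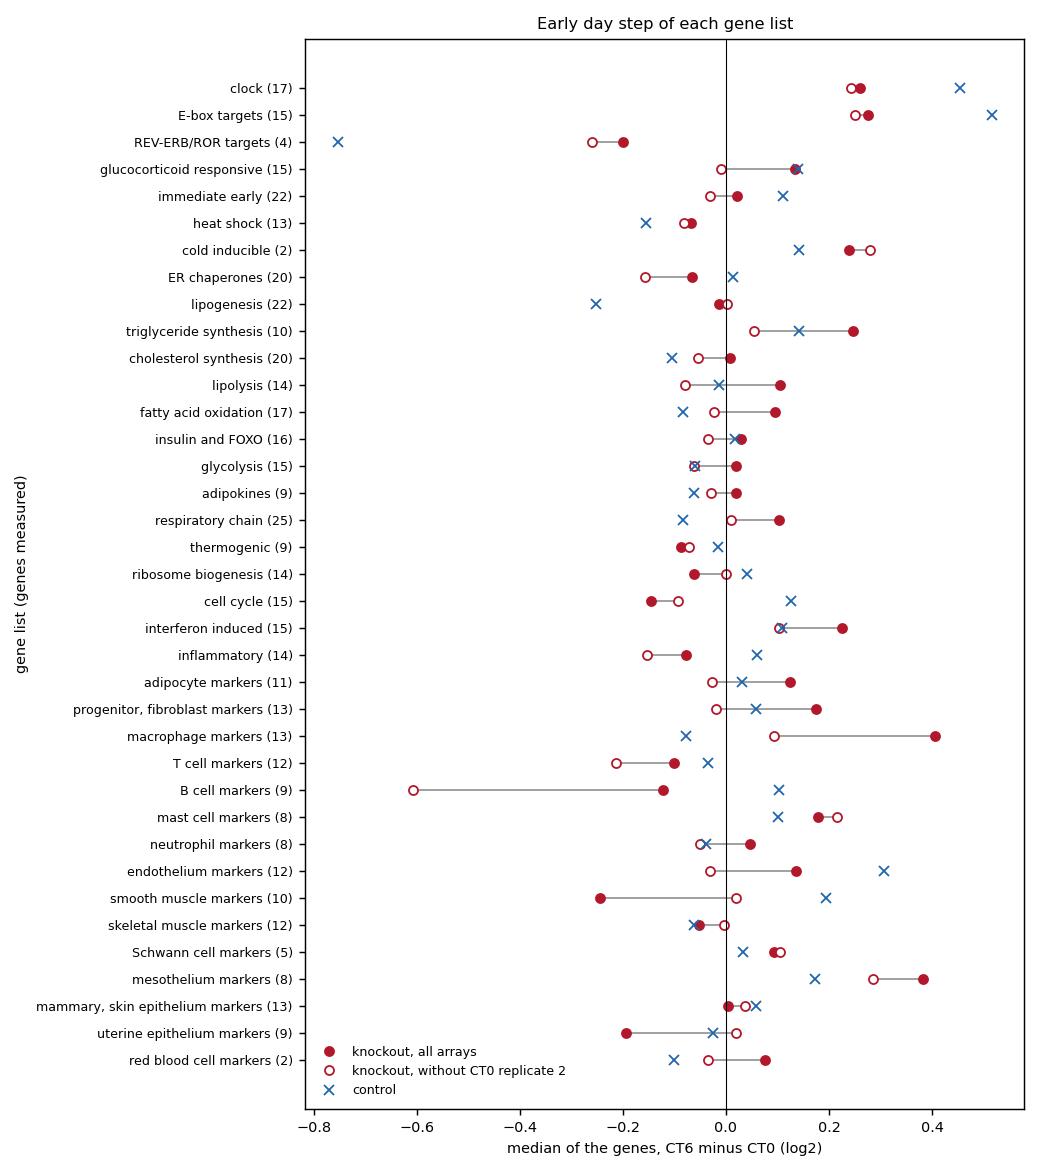
Median step, CT6 minus CT0 (log2), of each gene list in knockout fat with all arrays (filled red), in knockout fat without CT0 replicate 2 (open red) and in control fat (blue cross); the number of genes measured is in brackets. The clock and E-box medians, from lists that share genes, stay at 0.24 to 0.28 in knockout fat. That of the macrophage markers goes to 0.093 without CT0 replicate 2, against 0.40 with all arrays.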

How the data were processed

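Values are on the log2 scale, deposited by the authors after RMA, the robust multi-array average, which the submitters' processing notes name without a version. Dates of scanning were not given in the sources used here. Of 35556 probe sets, 21789 had 1 symbol in the platform annotation, and the brightest per gene gave 19938 genes, with no filter on dim genes. A model of 8 groups was fitted to all 24 arrays with limma 3.58.1 (lmFit and then eBayes, R 4.3.3), and p-values were adjusted over all genes by Benjamini-Hochberg with a threshold of 0.05. Promoters were searched and figures drawn in Python 3.11.15. Arrays have no read depth; precision is set by their number. The genes and 37 lists were chosen with earlier results of these data known.

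Named are the clock genes, genes past the threshold (or, where fewer than 5 passed in a direction, the 10 with the smallest p), 5 per direction in the control step and in the difference of the steps, and up to 4 members of a list with the smallest p, with defining cell type markers. Predicted genes were not named. Outside the rule are Alb, Slc20a1 and Ccl11. In simulated data 200 of the 19938 genes were moved. The knockout step recovered 58.2% of genes moved by 0.5 (log2), 98.5% at 1 and 100% at 2, with 9 false calls. The difference of the steps recovered 23.9%, 88.1% and 100%, with 12 false calls. The knockout step itself gave 1 call, and recovery with fewer moved genes was not simulated. Alternatives were other normalizations, filters, subsets of arrays, array weights, a replicate block and leaving out each array. No 2 arrays held the same values.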

Additional observations from a re-analysis of the deposited data

Results flagged for a closer look

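In 4 of 73 named genes every knockout CT6 array lay below every knockout CT0 array while every control CT6 array lay above every control CT0 array. Over all genes 63 (0.316%) did, and these 4 had been named for their small p in the difference of the steps. The difference of the steps, knockout minus control, was -0.68 for Snora3, -0.39 for Sart3, -0.37 for Casc3 and -0.38 for Sfpq (log2; limma, adjusted p = 0.999 each). In Snora3 the knockout arrays read 7.37 to 7.64 at CT6 and 7.94 to 8.08 at CT0, and the control arrays 7.92 to 7.97 at CT6 and 7.61 to 7.91 at CT0. None passes the test of the difference, and groups of 3 were not searched for single outlying arrays.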

How the results depend on the processing

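The knockout step gave 1 gene past the threshold with all 24 arrays, and also when values were centred on array medians, when the dimmest 40% of genes were left out, with every probe set tested alone, with trend and robust eBayes and with a replicate block (limma throughout). It gave 0 with only the 6 arrays of the step (824 at an unadjusted p under 0.05), 0 with the 12 knockout arrays (993), 2 with quantile normalization (Art3 joined Nr1d1), 4 with array weights (Dync2li1, Usp26 and Slc20a1 joined) and 2 without 4 arrays at CT12 and CT18 (Nr1d2 joined). Leaving out 1 array at a time gave 1 to 5: 5 without CT0 replicate 3 (Nr1d1, Dbp, Ifit3, Art3 and Ccl11), 2 without CT0 replicate 2 (Nr1d1 and Slc20a1) and 2 without CT6 replicate 3 (Nr1d1 and Ifit3). Without CT0 replicate 2 and the dimmest genes, an alternative chosen after seeing the data, it gave 3 (Nr1d1, Dync2li1 and Slc20a1). Nr1d1 passed in 15 of 17 alternatives, with steps of 1.04 to 1.45 and adjusted p of 0.00038 to 0.725. The control step gave 7 calls, 14 with its 6 arrays alone, 27 with array weights, 12 without 4 arrays at CT12 and CT18, and 5 to 8 with 1 array left out. The difference of the steps gave 0 under every alternative run (525 to 1363 at an unadjusted p under 0.05). The cause was not tested.

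Replicate numbers were not used as pairs in the main fit. Deviations of same-numbered arrays correlated at -0.246, -0.177 and 0.194 in knockout fat and at 0.111, 0.00442 and 0.0902 in control fat. Those of differently numbered arrays lay between -0.327 and 0.355 in knockout fat and between -0.0977 and 0.00276 in control fat. The replicate block left the counts at 1, 7 and 0.

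The sign of the knockout step changed in 6 named genes. With 1 array left out the step ranged from -0.10 to 0.080 for Cry2, -0.14 to 0.054 for Rora, -0.12 to 0.17 for Bhlhe40, -0.081 to 0.054 for Adipoq, -0.030 to 0.074 for Fabp4 and -1.45 to 0.028 for Ms4a1. With array weights it was -0.064 for Cry2 and -0.039 for Adipoq. Without CT0 replicate 2 and the dimmest genes it was -0.10 for Cry2, -0.081 for Adipoq and -0.028 for Fabp4. Of 37 list medians, 17 kept their sign with each of the 6 arrays left out, and 16 changed it without CT0 replicate 2. Of 73 named genes, 26 had a knockout step that moved by over 1.5 times with 1 of the 6 arrays left out, 20 of them without CT0 replicate 2. With 3 arrays a group, the test recovered 58.2% of genes moved by 0.5 (log2) in simulated data of the knockout step. Those data held 200 moved genes.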

Other observations

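Small nucleolar, Cajal body and nuclear RNA genes, a class chosen after the values of Snora3 were seen, numbered 59. Of these 46 had negative steps in knockout fat with a median of -0.19, and 29 had with a median of 0.0014 when CT0 replicate 2 was left out. In control fat 22 of the 59 were negative, with a median of 0.075.

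The knockout step leaned with the length of genes on the genome. Over 19856 genes it correlated with genomic span at a Spearman rho of -0.115 in knockout fat and -0.026 in control fat, a description over genes that share arrays. Over the 9943 genes above the median level rho was -0.213 in knockout fat and -0.00536 in control fat. For these brighter genes, with 1 of the 6 knockout arrays left out, rho lay between -0.249 (without CT0 replicate 2) and -0.127. It was -0.237 without CT6 replicate 2, -0.231 without CT6 replicate 3 and -0.182 without CT0 replicate 1. Among the fifth of genes with the longest span (median 111 kb) 124 were higher and 249 lower at an unadjusted p under 0.05 (limma), against 144 higher and 84 lower among the fifth with the shortest (median 1.56 kb). The part of RNA quality in this was not tested.

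Ccl11, the eotaxin gene, passed in knockout fat without CT0 replicate 3 (0.58, limma, adjusted p = 0.0377) and had a step of 0.45 with all arrays (adjusted p = 0.153). It was named after its values were seen.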
